A study of Tupaia belangeri chinensis with 36 samples.

Results

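The cauda epididymis, the tail segment in which mature sperm are stored, was set apart from the caput (the head segment) and the testis by 116 of the 27777 genes of the gene table. These cauda-restricted genes were chosen from the measured levels: a mean of at least 5 CPM (counts scaled to the total of their library, the sum of all genes being 1000000) over the 6 cauda libraries, at least 5 times the mean of the 6 caput libraries and at least 5 times the mean of the 6 testis libraries. Tissues came from sexually mature male Chinese tree shrews (Tupaia belangeri chinensis) of 1.5 to 2 years. CAUDA-NR, CAPUT-NR and TESTIS-NR were collected in the non-reproductive season (mid-December 2023) and CAUDA-R, CAPUT-R and TESTIS-R in the reproductive season (mid-April 2024), with 3 biological replicates in each of these 6 groups, so season and collection date cannot be told apart. No treatment or genetic change is named in the labels, and whole pieces of tissue were homogenized, so that a library holds all cell types of its segment.

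The epididymis is a single long coiled tubule that receives sperm from the testis. Sperm gain motility and the ability to fertilize in the caput and the segment after it, and are kept in the cauda until ejaculation. The cauda is known for a wide lumen, an epithelium that controls the pH and the ion content of the fluid around sperm, and a thick coat of smooth muscle that contracts at ejaculation. In seasonal breeders the epididymis depends on testicular androgens, which vary over the year.

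Gene identifiers come from a database for the tree shrew, and RefSeq's table of gene symbols held 0 of the 27777. The members are therefore described by identifier, rank and level, without gene functions, cell type markers or sequences. The libraries held 26703225 to 37174187 counts each. Genes restricted to the other tissues by the same rule served to describe the cauda libraries. The 299 caput-restricted genes summed to 4215 to 4534 CPM in CAUDA-NR and 4273 to 5015 CPM in CAUDA-R, and the 2399 testis-restricted genes to 12922 to 14752 and 12706 to 15154 CPM. For both sets the cauda seasons overlapped.

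The levels that chose the members are a description and were not tested. Their cauda means ran from 5.18 to 3942 CPM with a median of 37.7 CPM. A mean of at least 1000 CPM was reached by 9 members and one of at least 100 CPM by 36, while 18 lay under 10 CPM. The sum was concentrated in few genes: the 5 highest members held 43.9% of it, the 10 highest 66.5% and the 20 highest 80.0%. The highest, TSDBGID.124 (named after its values were seen), had 3886, 3692 and 4035 CPM in CAUDA-NR and 2846, 5238 and 3955 CPM in CAUDA-R. Its caput mean was 772 CPM and its testis mean 49.4 CPM.

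Most members lay nearer to the bound against the caput than to that against the testis. The cauda mean was a median of 8.05 times the caput mean and 34.0 times the testis mean, and the caput ratio was the smaller in 96 of 116. At least 10 times the caput level was reached by 43 members and at least 50 times by 8. The word restricted names the rule and not an absence elsewhere, since only 2 members had 0 counts in all 6 caput libraries and 4 in all 6 testis libraries. The gene just inside the ratio bound had 5.014 times the higher of the other tissues' means, and the gene just outside 4.955 times. There were 33 members with a ratio under 6 and 65 genes just outside with a ratio of 4 to 5. At the bound on level the lowest member had 5.18 CPM and the next gene below 4.84 CPM.

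**Figure D1:**
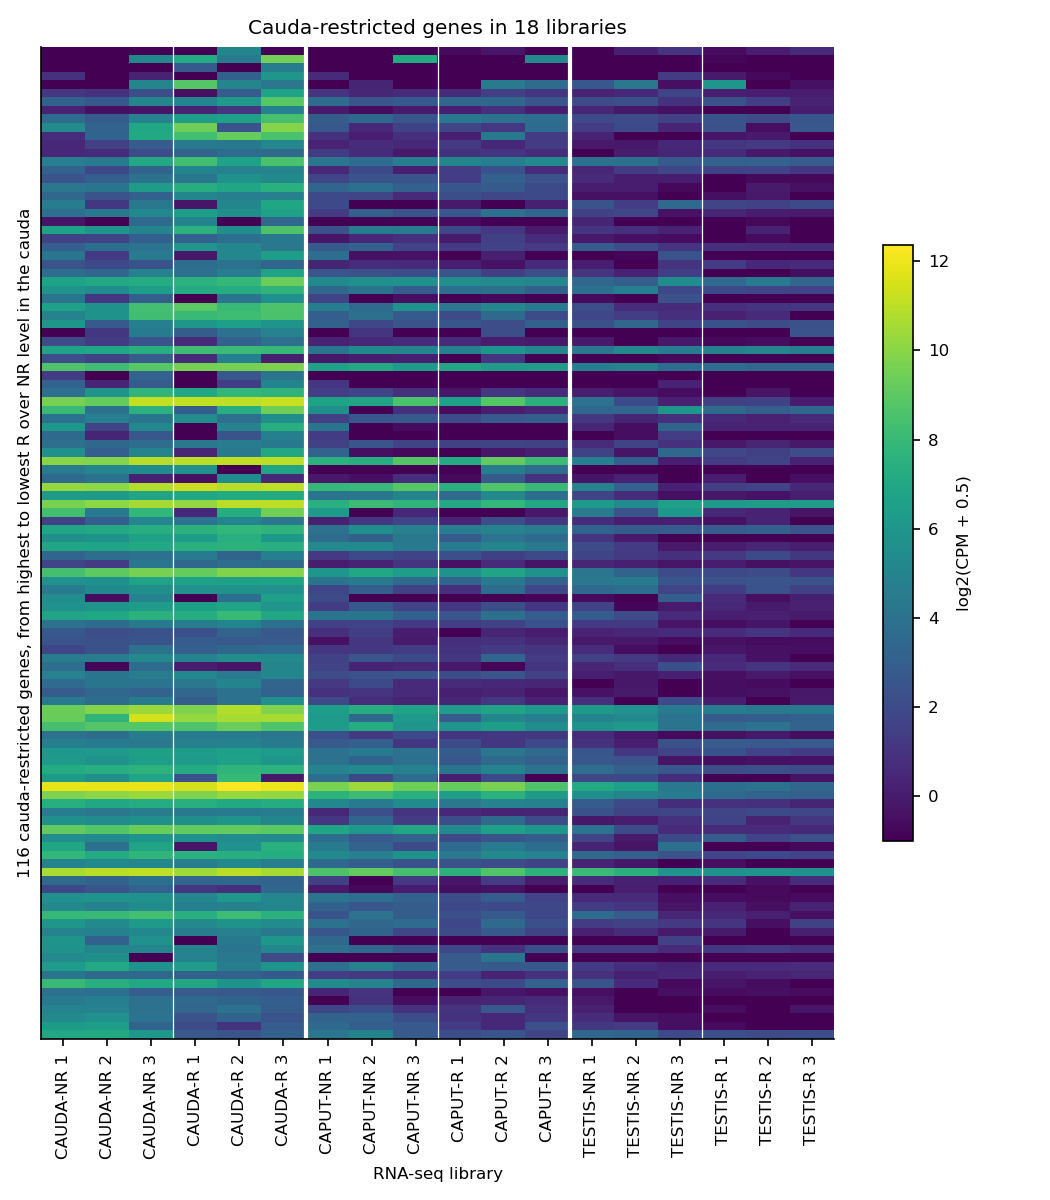
Levels of the 116 cauda-restricted genes as log2(CPM + 0.5) (colour) in 18 RNA-seq libraries (columns, white lines between tissues and seasons); rows run from the highest to the lowest ratio of the CAUDA-R mean to the CAUDA-NR mean. The rule requires a high mean CPM over the 6 cauda columns and not a bright value in each, and some rows are dark in several cauda libraries.

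Summed over the members, the 3 CAUDA-NR libraries had 17889, 16951 and 27522 CPM, and the 3 CAUDA-R libraries 24792, 29965 and 32318 CPM. CAUDA-NR 1 and 2 lay below every R library, and CAUDA-NR 3 lay among them, so the seasons overlapped. The mean was 20787 ± 5851 CPM for CAUDA-NR and 29025 ± 3850 CPM for CAUDA-R (SD, n = 3), 1.40-fold higher in R. No test was made of this sum, because its genes were chosen from these libraries. In the caput the same genes summed to 3566, 4497 and 4078 CPM in NR and to 2291, 4451 and 2472 CPM in R. CAPUT-R 2 lay with the NR libraries and CAPUT-R 1 and 3 below them. In bulk tissue, fewer cells of a type and less RNA per cell cannot be told apart.

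In the testis the members summed to 1171, 890 and 666 CPM in NR and 462, 403 and 366 CPM in R. Every TESTIS-NR library was above every TESTIS-R library. The testis-restricted genes summed to 170776 and 132569 CPM in TESTIS-NR 1 and 2, to 367205 CPM in TESTIS-NR 3 and to 361706 to 364249 CPM in TESTIS-R. TESTIS-NR 3, the NR library with as much testis-restricted RNA as the R libraries, also had the lowest member sum of its season, and the part of that RNA in the testis levels was not tested.

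The season labels did not enter the rule, but the 6 cauda libraries compared by season are those that chose the members. A member could reach the bounds through the libraries of 1 season, by its cauda level or by its caput or testis level, or by a narrow margin. In all, 57 members met the rule in R and not in NR, 7 the reverse. Such a member need not differ between the cauda seasons, but the rule can favour members that do. The counts below therefore describe selected values. edgeR's quasi-likelihood test was fitted to all 16454 genes that passed its filter on low counts, and 114 of the 116 members were among them. At a Benjamini-Hochberg adjusted p under 0.05 it called 0 members higher in R (0% of all genes tested) and 0 lower (0.0122% of all genes tested). Unadjusted p-values under 0.05 were found for 25 members higher in R, 21.9% of those tested, where 12.5% of all genes tested were higher. They were found for 7 members lower in R, 6.14% of those tested, against 13.0% of all genes. The median log2 change of the members was 0.68 and that of all genes tested -0.02. Changes over 1 on the log2 scale were found in 35.1% of the tested members and 6.00% of all genes tested, and changes under -1 in 4.39% and 8.04%. Of the 51 members that met the rule in each season, 0 were higher and 3 lower at an unadjusted p under 0.05, 0 passed after edgeR's adjustment, and the median log2 change was 0.50. That subset was formed after the values were seen, and it is itself selected on these libraries. Nothing further is read from these shares, since genes are not replicates and the members were chosen on these libraries.

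In 33 members the 3 libraries of one season did not overlap those of the other. All 3 R libraries lay above all 3 NR libraries in 25 members, 21.9% of those tested, and this held for 12.7% of all genes tested. All 3 R libraries lay below in 8 members, 7.02%, and in 21.3% of all genes tested. The other 83 members overlapped. CAUDA-NR 3 was the NR library nearest to the R libraries in 22 of the 25 higher and in 7 of the 8 lower members. Over all genes tested that did not overlap, this was so in 62.3% of those higher and 72.4% of those lower.

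**Figure D2:**
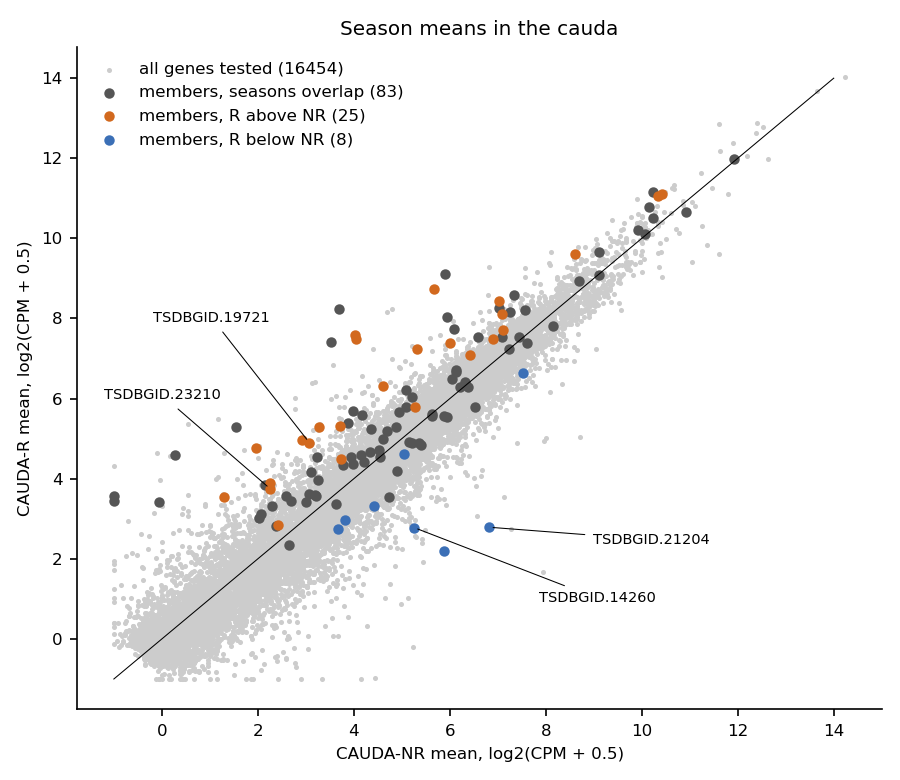
CAUDA-NR mean (x) against CAUDA-R mean (y), both as log2(CPM + 0.5), for all 16454 genes tested (grey) and the 116 members, coloured by whether the 3 libraries of each season overlap; the line marks equal means. Of the members, 25 lie above NR in all 3 R libraries and 8 below, and the 4 labelled genes have the smallest season p in each direction.

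The calls depended on CAUDA-NR 3. Without it edgeR called 22 members higher in R (19.1% of 115 tested, where 2.64% of all genes were called higher) and 4 lower (3.48%, where 2.67% of all genes were called lower). Before adjustment there were then 45 higher (14.3% of all genes) and 8 lower (14.6% of all genes). The 7 lower became 4 without CAUDA-NR 1 (8.45% of all genes) and 11 without CAUDA-R 2 (13.0% of all genes). DESeq2 with all 6 cauda libraries called 22 members higher (19.0%, against 5.55% of all genes) and 5 lower (4.31%, against 4.93%). The calls were 26 and 27 members, and 17 were shared, 65.4% of the first list and 63.0% of the second. Leaving out any other cauda library gave 0 calls among the members. By the rank of the members' levels CAUDA-NR 3 had Spearman correlations of 0.82 and 0.796 with CAUDA-NR 1 and 2, and of 0.767, 0.838 and 0.802 with CAUDA-R 1, 2 and 3, over the 116 members that share these libraries. CAUDA-NR 1 had 0.556, 0.686 and 0.619 with the R libraries, and CAUDA-NR 2 had 0.724, 0.715 and 0.506.

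The member with the smallest season p was TSDBGID.21204, which was lower in R. It met the rule for members in NR and not in R, so its season p-values describe a selected member. It had 127.7, 139.8 and 68.9 CPM in CAUDA-NR 1, 2 and 3 and 6.23, 4.75 and 8.26 CPM in CAUDA-R 1, 2 and 3. The seasons did not overlap, and the lowest NR library was CAUDA-NR 3. Its log2 change was -4.02 (SE 0.34, n = 3 against 3, edgeR adjusted p 0.0539), which misses the threshold. It passed without CAUDA-NR 3 (adjusted p 0.0153), with all 18 libraries in 1 fit (0.0237), without the filter on low counts (0.0457) and with DESeq2. In the caput it had 18.6, 32.6 and 6.63 CPM in NR and 3.02 to 5.31 CPM in R, also without overlap (log2 change -2.15, edgeR adjusted p 0.251).

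TSDBGID.14260 was the other lower member named by the rule. It too met the rule for members in NR and not in R, so its season p-values also describe a selected member. It had 41.8, 54.3 and 16.7 CPM in CAUDA-NR and 4.79, 9.49 and 4.85 CPM in CAUDA-R, a log2 change of -2.45 (SE 0.48, n = 3 against 3, edgeR adjusted p 0.108). CAUDA-NR 3 was again the lowest NR library and still above every R library, and without it the edgeR adjusted p was 0.0285. DESeq2 with all 6 cauda libraries also called it (adjusted p 5.24e-06). In the caput it had 8.91, 8.68 and 4.16 CPM in NR and 1.45, 0.972 and 1.71 CPM in R, a log2 change of -2.33 with an edgeR adjusted p of 0.206. Values were lower in R in both segments, and neither difference passed in edgeR's fit with all libraries.

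Of the higher members, TSDBGID.19721 had 10.5, 4.89 and 8.37 CPM in CAUDA-NR and 34.5, 25.6 and 28.1 CPM in CAUDA-R. Every R library was above every NR library, and the log2 change was 1.99 (SE 0.31, n = 3 against 3, edgeR adjusted p 0.108). It passed without CAUDA-NR 3 (adjusted p 0.0481) and with DESeq2. Its caput libraries had 1.09 to 3.34 CPM in NR and 3.06 to 4.18 CPM in R, and overlapped. TSDBGID.23210 had 5.06, 3.20 and 4.60 CPM in CAUDA-NR and 13.7, 15.5 and 9.57 CPM in CAUDA-R, a log2 change of 1.68 (SE 0.29, n = 3 against 3, edgeR adjusted p 0.108). Among the alternatives only DESeq2 called it. Both higher genes met the rule for members in R and not in NR, so their season p-values describe selected members.

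**Figure D3:**
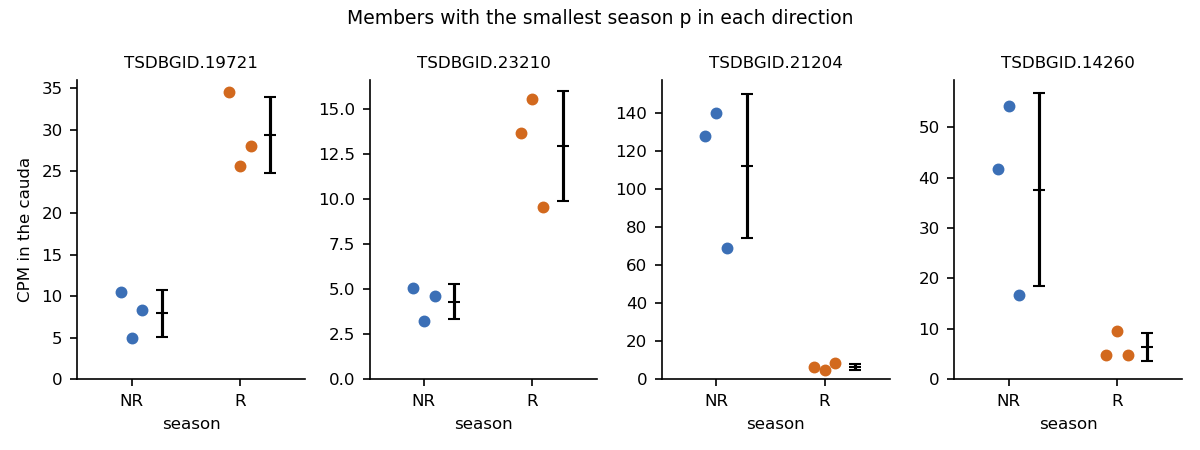
CPM in the 6 cauda libraries for the 4 named members, with NR in blue and R in orange, 1 point per library, and the mean with its SD (n = 3) in black beside each season. Each panel has its own axis from 0; no panel shows an overlap between seasons, and in the 2 lower genes the NR points spread most.

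Among the most abundant members the median season change was like that of all members, while single changes ran from -0.25 to 3.30. Among the 20 highest, which start at 220 CPM, the median log2 change was 0.71, with 4 higher and 0 lower at an unadjusted p under 0.05, where 12.5% of all genes tested were higher and 13.0% lower. TSDBGID.124 averaged 3871 ± 172 CPM over CAUDA-NR and 4013 ± 1197 CPM over CAUDA-R (SD, n = 3), a log2 change of 0.14 (SE 0.25, edgeR adjusted p 0.758).

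The rule itself was met by different numbers of genes in each season. Applied to the 9 R libraries alone it gave 191 genes, and to the 9 NR libraries alone 78. Of the 116 members 1 met it in neither season taken alone. In the 105 members with counts in both segments and both seasons, the cauda mean was a median of 10.3 times the caput mean in R and 5.18 times in NR, and the ratio was larger in R in 93. The rule itself set a bound on this ratio, and no share over all genes stands beside these values.

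The caput side of this ratio was tested too. The caput levels also entered the rule, so the counts in the caput describe selected values as well. Of 99 members tested there edgeR called 0 higher (0% of all 17059 genes) and 0 lower (0%), and DESeq2 called 1 of 114 higher (2.23% of all genes) and 6 lower (1.76% of all genes). Before adjustment 2 members had a p under 0.05 and a higher level in R (2.02%, against 6.91% of all genes) and 13 a lower one (13.1%, against 8.79%). The seasons did not overlap in 3 members with R above NR (8.21% of all genes) and 14 with R below NR (15.1% of all genes). The median log2 change was -0.41 among the members and 0.00 over all genes tested in the caput. Without CAPUT-R 2 there were 24 lower (12.9% of all genes) and the median was -0.78. There were 6 lower without CAPUT-NR 1 (3.38% of all genes) and 8 without CAPUT-R 1 (5.25%). The median was -0.20 without CAPUT-R 3 and -0.21 without CAPUT-NR 2. The caput-restricted genes took 56221, 54009 and 99551 CPM in CAPUT-NR 1, 2 and 3. They took 126582, 135453 and 98056 CPM in CAPUT-R 1, 2 and 3, so CAPUT-NR 3 lay among the R libraries. TESTIS-NR 3 was likewise near the R libraries in testis-restricted RNA, and CAUDA-NR 3 lay among them in the member sum. The labels do not tie these libraries to 1 animal. The part of caput-restricted RNA in the caput levels of the members was not tested.

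Set side by side, 50 of the 99 members tested in both segments had a positive change in the cauda and a negative one in the caput, 29 were positive in both, 17 negative in both, and 3 negative in the cauda and positive in the caput. These counts have no share over all genes beside them and are a description of the members only. The cauda and caput levels of these libraries chose the members, so the interaction counts also describe selected values, and nothing further is read from them. The difference of the season changes, cauda minus caput, was tested as an interaction in 114 members. edgeR called 0 of them more positive in the cauda (0.00557% of all 17947 genes) and 0 more negative (0.0223%), and DESeq2 called 9 (0.299% of all genes) and 0 (0.732%). Before adjustment 25 had a p under 0.05 and were more positive (21.9%, against 3.39% of all genes) and 3 were more negative (2.63%, against 3.96%), with a median difference of 1.06 on the log2 scale. The first count fell to 10 without CAUDA-NR 2, 13 without CAUDA-NR 1, 14 without CAUDA-R 3, 15 without CAPUT-R 3 and 16 without either CAPUT-NR 1 or CAPUT-R 1. TSDBGID.23210 had an interaction of 2.31 (SE 0.58, edgeR adjusted p 0.375).

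**Figure D4:**
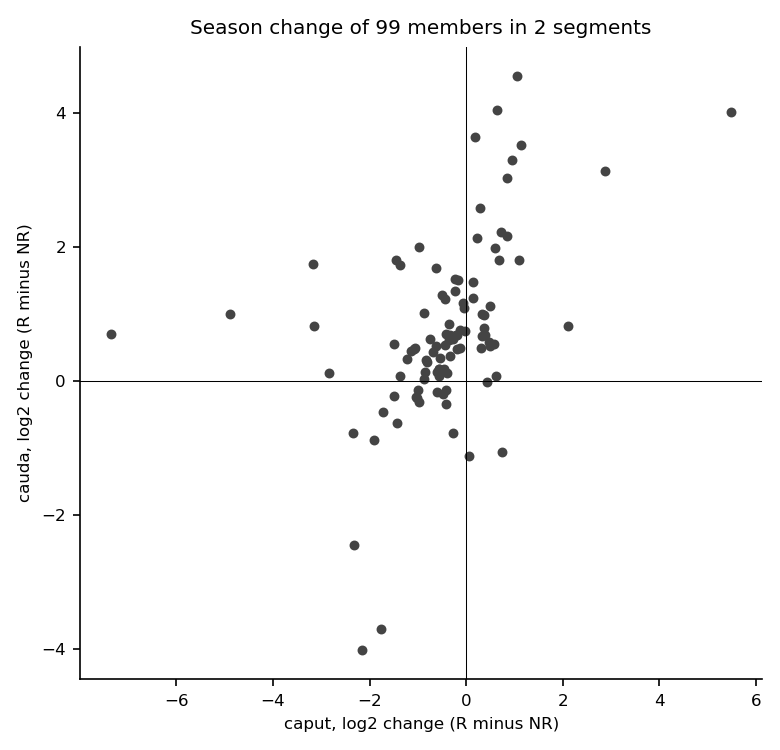
Season change (R minus NR, log2) in the caput (x) and the cauda (y) for the 99 members tested in both, 1 point per gene, with lines at 0. The upper left field, higher in the cauda and lower in the caput, holds 50 of the points; the levels of both segments chose these genes.

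Spread between replicates was described for each member and season. The SD of log2(CPM + 0.5) over 3 replicates had a median of 0.551 in CAUDA-NR and 0.505 in CAUDA-R, where all genes tested had 0.256 and 0.231. Without CAUDA-NR 3 the median in NR was 0.317 (0.189 over all genes tested), and without CAUDA-R 2 that in R was 0.294 (0.145), each from 2 replicates. With 3 replicates it was over 1 in 31.0% of the members in NR and 30.2% in R, against 5.10% and 5.03% of all genes tested. The rule has a part in this, because a gene that is high in 1 cauda library can reach the required mean through that library. The SD was larger in R in 62 members and larger in NR in 54. An SD under 0.5 in each season was found in 39 members, 33.6%, and in 70.2% of all genes tested. These 39 had a median cauda mean of 75.7 CPM, and the other members 32.7 CPM.

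In 25 members a single library held at least 50% of the sum of the 6 cauda libraries, where an even share is 16.7%. That library was CAUDA-R 3 in 20 of them, CAUDA-R 2 in 3, CAUDA-R 1 in 2 and an NR library in none. Among genes tested this applied to 23 of 114 members (20.2%) and to 2.02% of all genes. CAUDA-R 3 was also the highest cauda library in 46 of the 116 members, followed by CAUDA-R 2 in 31 and CAUDA-NR 3 in 15. No share over all genes stands beside these counts for single libraries, which describe the members only. Applied without CAUDA-R 3, the rule gave 97 genes, 90 of them members.

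Some members had counts in few of the cauda libraries. TSDBGID.2605 (named after its values were seen) had 34.2 CPM in CAUDA-R 2 and 0 counts in the other 5 cauda libraries. A further member had 6.26 CPM in CAUDA-R 1, 24.9 CPM in CAUDA-R 3 and 0 counts in every other cauda library. These 2 members had 0 counts in all CAUDA-NR libraries and did not pass the filter on low counts, so they were not tested. Another pair of members had 0 counts in CAUDA-NR 1 and 2 and 37.1 and 33.1 CPM in CAUDA-NR 3, where CAUDA-R ran from 23.0 to 743 CPM and from 19.0 to 460 CPM. Outside the cauda the first had up to 144 CPM, in CAPUT-NR 3, and the second up to 63.9 CPM, in TESTIS-R 1. Each of these values was above all CAUDA-NR levels of the same gene.

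Without the members held by 1 library, the season counts stayed within 1.5 times of those above. The members left were still chosen on these libraries. Of the 51 members that met the rule in each season, 0 were higher and 3 lower at an edgeR unadjusted p under 0.05. Of 91 tested members with under 50% in each library, 22 with an unadjusted p under 0.05 were higher in R and 7 were lower, where 12.5% and 13.0% of all genes tested were, 0 passed after edgeR's adjustment over all genes, and the median log2 change was 0.53. Without CAUDA-R 3, the library that most often stood alone, there were 21 higher (7.76% of all genes) and 5 lower (8.79% of all genes) and the median was 0.51.

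One set of members shared a pattern over the cauda libraries, and most of its genes were also highest in the same caput and the same testis library. In 13 members CAUDA-NR 2 and CAUDA-R 1 were each under 25% of the cauda mean and the other 4 cauda libraries were not, a set chosen after the values were seen. They summed to 1010, 78.0 and 747 CPM in CAUDA-NR and to 10.3, 552 and 2394 CPM in CAUDA-R. CAUDA-R 3 was the highest library in all 13, and 7 had 0 counts in CAUDA-R 1, where 3 counts are worth 0.0944 CPM. The pattern was found in 11.2% of the members and in 0.211% of the 11837 genes with at least 5 CPM in the cauda, 25 genes of which 12 are not members.

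The caput and testis libraries also differed among replicates. Their means entered the rule for members, but not the choice of these 13 among the members. No caput or testis values are given here for the 12 genes with the pattern that are not members. The 13 genes summed to 210 CPM in CAPUT-NR 1 and to 9.43 and 6.74 CPM in CAPUT-NR 2 and 3, while no CAPUT-R library had over 23.7 CPM. In the testis they summed to 205 CPM in TESTIS-NR 3, to 41.2 and 18.1 CPM in TESTIS-NR 1 and 2 and to 14.5 to 20.4 CPM in TESTIS-R. CAPUT-NR 1 was above each other caput library in 12 of the 13, and in 21 of the other 103 members. TESTIS-NR 3 was above each other testis library in 12 of the 13, and in 11 of the other 103 members. Over all genes tested these shares were 19.9% and 8.60%. The 13th gene in each comparison was the same one, with 0 counts in all caput and testis libraries.

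The most abundant gene of the set, TSDBGID.11038 (named after its values were seen), shows the pattern. It had 322, 21.3 and 228 CPM in CAUDA-NR and 0.976, 156 and 727 CPM in CAUDA-R. In the caput it had 72.7 CPM in CAPUT-NR 1 and at most 0.974 CPM in the other 5 libraries, and in the testis 69.0 CPM in TESTIS-NR 3 and 0.32 to 21.3 CPM in the others. High and low libraries occurred in both seasons, and 0 of the 13 had an unadjusted season p under 0.05 in the cauda, the lowest being 0.296 by edgeR. The set held 3.21% of the member sum.

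**Figure D5:**
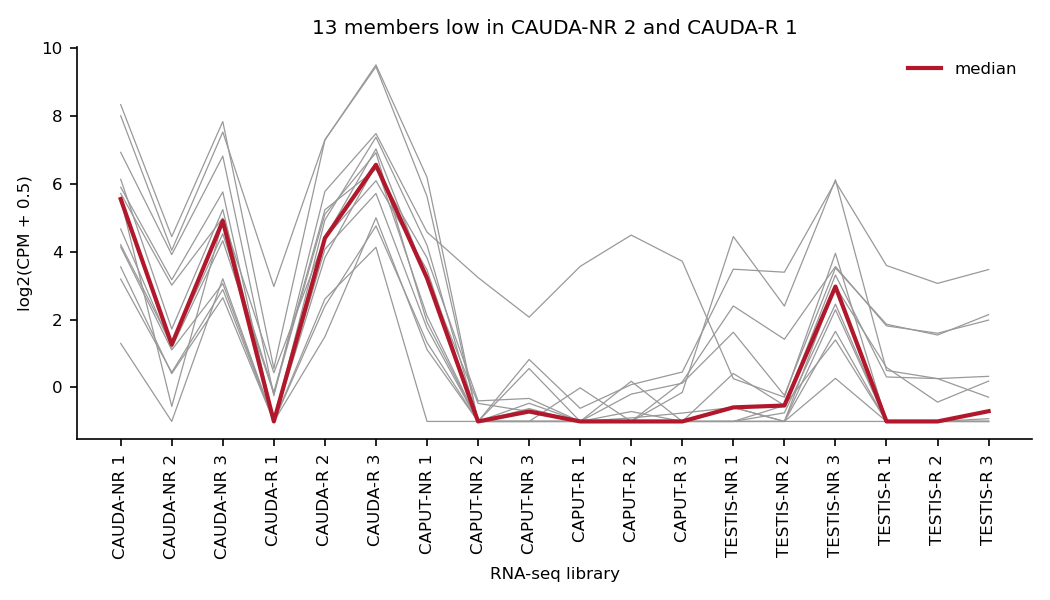
Levels as log2(CPM + 0.5) of the 13 members low in CAUDA-NR 2 and CAUDA-R 1 (grey, 1 line per gene) and their median (red) over the 18 libraries. Besides 4 cauda libraries, CAPUT-NR 1 and TESTIS-NR 3 stand above the other libraries of their tissues in the median.

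Over all 116 members, the commonest pair of lowest libraries was CAUDA-NR 1 and 2, in 46 of the 116 members (39.7%) and in 14.1% of all genes tested. CAUDA-NR 2 and CAUDA-R 1 were the lowest in 21 members (18.1%, against 5.09%), which include the set above. CAUDA-R 1 and CAUDA-R 3, the lowest in 20.9% of all genes tested, were the lowest in 10 members (8.62%).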

How the data were processed

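Messenger RNA was selected by its poly(A) tail, and 18 libraries were sequenced as read pairs (150 nt per read) from RNA with an integrity number of 7 or more, per the labels' protocols. The authors deposited raw gene counts, 1 column per library, with no normalization. featureCounts and bedtools are named in the submitters' processing notes, without versions; the aligner, build and strand setting were not given in the sources used here. Overlapping genes and near-identical copies were therefore not separable. The small RNA tables were not used here.

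CPM were computed from column totals. Members were found by the rule stated in the report. Season tests used edgeR 4.0.16 in R 4.3.3 (TMM scaling, default filter, quasi-likelihood test, R minus NR, Benjamini-Hochberg adjustment over all genes tested), tested on simulated data, with DESeq2 1.42.0 as an alternative. The spread used log2(CPM + 0.5). Named genes are, per direction, up to 2 members with non-overlapping cauda seasons, at least 5 CPM in the higher season and the smallest p. Alternatives were other scalings, no filter, a replicate block, all 18 libraries in 1 fit, other rules and pseudocounts, and leaving out each library. The members, the rules and the alternatives were chosen with earlier results of these data known. The labels call the replicates biological but do not tie libraries to animals. PCR duplicates cannot be told apart without molecular identifiers, so levels near 3 counts can hold duplicates besides counting error, which was not tested.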

Additional observations from a re-analysis of the deposited data

How the results depend on the processing

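The number of genes meeting the rule was 191 on R libraries alone, 78 on NR libraries alone, 38 at a factor of 10 and 308 at a factor of 3. It was 127 with medians, of which 92 were members, 114 after TMM scaling, and 97 to 130 when 1 library was left out. Season calls among members in the cauda, 0 in the fit as reported, numbered 27 with DESeq2, 1 with no filter, 1 with all 18 libraries in 1 fit, and 0 to 26 when 1 library was left out. In the caput there were 7 with DESeq2 and 0 otherwise, and in the difference of segments 9 with DESeq2 and 0 to 1 when 1 library was left out. Members higher in the cauda at an unadjusted p under 0.05 numbered 0 among the 51 that met the rule in each season and 18 to 45 over the other alternatives, and lower ones 3 to 11 (3 with all 18 libraries in 1 fit, 4 without CAUDA-NR 1, 11 without CAUDA-R 2), against 25 and 7. The median cauda change was 0.46 to 0.90, that of the caput -0.78 to -0.20, and that of their difference 0.89 to 1.38. All these fits used members chosen on these libraries, and the rule can favour these signs. The counts and medians therefore describe selected values and are no check on the season change. The median SD moved from 0.551 in NR to 0.317 to 0.625 and from 0.505 in R to 0.294 to 0.537 when 1 library was left out. It was 0.317 without CAUDA-NR 3 and 0.294 without CAUDA-R 2.

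The replicate block gave 0 calls among members in the cauda, the caput and the difference of segments. In the difference of segments a block of the number within season, chosen after the data were examined, also gave 0, with 28 more positive and 2 more negative at an unadjusted p under 0.05, against 25 and 3. Same-numbered cauda libraries of the 2 seasons had correlations of their deviations of -0.0182, -0.0915 and -0.0112, and same-numbered caput libraries 0.0183, 0.288 and 0.363. The last 2 caput values, between libraries of different collection dates, also matched their own number best, and no cauda value did. Cauda and caput of one season had 0.116, 0.278 and 0.294 in R and 0.168 and 0.109 for NR 1 and 3, and these 5 matched their own number best, while NR 2 had 0.0505 and did not. The labels tie no libraries to animals, and matches also occurred between seasons. These correlations therefore do not show which libraries share an animal, and the fit as reported has no block.

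Levels near 0 limit the caput and testis sides: 17 members were too low to test in the caput, and 3 libraries per group limit the precision of each season mean.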
